A study of Mus musculus with 69 samples.

Results

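The genes described here encode proteins of the mitochondrial ribosome, those whose symbols start with Mrpl (named for the large subunit) or Mrps (named for the small subunit). A probe set, the group of short probes that reports 1 transcript on the array, was included where its annotation gave exactly 1 gene symbol and that symbol started with Mrpl or Mrps. This rule found 73 genes among the 17097 named by single-symbol probe sets, with 129 of the 45141 probe sets of the array. They were 85 probe sets of 46 Mrpl genes and 44 probe sets of 27 Mrps genes. A further 6 probe sets that carried a member symbol together with another symbol were left out. Of the 129, 115 probe sets (73 Mrpl and 42 Mrps) passed the filter on dim signals, which asked for at least 1 group mean above 3.23 on the log2 scale, and every one of the 73 genes kept at least 1 tested probe set. The 14 untested probe sets belonged to genes that also had a brighter one.

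The arrays were of heart RNA from adult male CD-1 mice, an outbred stock, weighing 20 to 35 g and not anesthetized. For the injection route, mice received potassium cyanide (KCN, 8 mg/kg, subcutaneous) or the same volume of saline, and hearts were taken 1, 2, 4, 8 or 24 h later. For the inhalation route, mice were exposed nose-only to hydrogen cyanide gas (HCN, 327 ppm) or to air, and hearts were taken 1, 2, 4 or 24 h later. The 69 arrays (37 injection, 32 inhalation) fell into 18 groups, of which 15 had 4 arrays and 3 had 3 arrays (saline 2 h, saline 4 h and KCN 4 h). The labels call the arrays of a group biological replicates and name no individual link between groups.

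The mitochondrial ribosome makes the few proteins encoded by mitochondrial DNA, all of them subunits of the oxidative phosphorylation complexes. Its RNA comes from mitochondrial DNA, but all of its proteins are encoded in the nucleus, translated in the cytosol and imported, so their transcripts are measured here in the same way as those of any nuclear gene. Cyanide blocks cytochrome c oxidase, the terminal enzyme of electron transport, and heart muscle draws most of its ATP from that pathway.

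The transcription factors of the ETS family (GABP among them), NRF1 and YY1 are known to act at many nuclear genes for mitochondrial proteins, so the members' start sites were searched for their core letters on both strands. RefSeq start-site windows (build GRCm38.p6, 250 bases before the start and 50 from it on, 300 in all) were held for 65 of the 73 genes. The windows of 22 of the 65 genes (33.8%) held CCGGAAG (ETS, reverse complement CTTCCGG), against 11.9% of the windows of 17492 protein-coding genes. AAGATGGC (YY1, reverse complement GCCATCTT) was found in 12 (18.5%) against 3.22%, and CGCATGCG (NRF1, its own reverse complement) in 6 (9.23%) against 2.54%. TGACGTCA (the cyclic AMP response element, its own reverse complement) was in 2 (3.08%) against 2.34%, TATAAA (the TATA box, reverse complement TTTATA) in 4 (6.15%) against 13.3%, and GGGGCGGGG (Sp1, reverse complement CCCCGCCCC) in 13 (20%) against 15.5%. CCAAT (the CCAAT box, reverse complement ATTGG) was in 27 (41.5%) against 39%. A longer form of the NRF1 letters had been searched first and matched fewer windows of both the members and the protein-coding genes, and the shorter core replaced it after those counts were seen. No matches to the ETS, YY1, NRF1 and cyclic AMP letters overlapped, and 34 of the 65 windows held at least 1 ETS, YY1 or NRF1 match. Of the 24 genes with a window that had a probe set lower and none higher at HCN 2 h, 10 (41.7%) held the ETS letters, against 12 of the other 41 (29.3%). A match is a run of letters in this window, and no binding was measured.

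Windows of 5 called members that held a match are shown 5′ to 3′ on the gene's strand, with the matched letters in capitals. Mrpl58 (chr11:115403502-115403801, plus strand) has ETS letters starting at bases -17 and -2 from the start, and Mrps12 (chr7:28741772-28742071, minus strand) has YY1 letters at -199 and ETS letters at 2. Mrpl9 (chr3:94443086-94443385, plus strand) has NRF1 letters at -27. These 3 genes had lower probe sets after inhaled HCN. Mrpl52 (chr14:54426659-54426958, plus strand), higher at HCN 2 h, has ETS letters at -47 and 3. Mrps27 (chr13:99344536-99344835, plus strand), higher at KCN 24 h, has ETS letters at -48 and YY1 letters at 15.
Mrpl58: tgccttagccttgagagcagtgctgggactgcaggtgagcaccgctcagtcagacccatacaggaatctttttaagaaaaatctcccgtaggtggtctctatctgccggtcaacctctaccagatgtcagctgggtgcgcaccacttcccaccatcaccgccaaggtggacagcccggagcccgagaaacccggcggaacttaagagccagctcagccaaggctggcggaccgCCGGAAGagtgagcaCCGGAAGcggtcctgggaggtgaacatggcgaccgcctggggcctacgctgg
Mrps12: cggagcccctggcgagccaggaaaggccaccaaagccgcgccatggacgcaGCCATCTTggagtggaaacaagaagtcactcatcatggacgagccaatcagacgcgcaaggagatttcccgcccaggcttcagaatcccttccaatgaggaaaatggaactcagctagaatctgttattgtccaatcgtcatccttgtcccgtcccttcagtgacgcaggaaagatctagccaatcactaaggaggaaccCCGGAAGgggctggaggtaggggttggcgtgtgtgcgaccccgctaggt
Mrpl9: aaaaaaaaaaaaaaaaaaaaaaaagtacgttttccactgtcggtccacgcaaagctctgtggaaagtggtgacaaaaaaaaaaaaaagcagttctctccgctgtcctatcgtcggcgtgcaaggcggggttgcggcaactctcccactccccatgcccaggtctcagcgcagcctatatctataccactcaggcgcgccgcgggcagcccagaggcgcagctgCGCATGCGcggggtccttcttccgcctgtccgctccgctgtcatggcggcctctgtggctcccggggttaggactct
Mrpl52: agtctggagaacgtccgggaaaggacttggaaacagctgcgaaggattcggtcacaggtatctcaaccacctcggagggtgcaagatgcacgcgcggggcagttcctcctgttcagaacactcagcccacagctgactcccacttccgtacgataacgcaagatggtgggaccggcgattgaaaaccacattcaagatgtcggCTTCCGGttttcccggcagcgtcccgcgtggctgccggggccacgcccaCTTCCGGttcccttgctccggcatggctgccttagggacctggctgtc
Mrps27: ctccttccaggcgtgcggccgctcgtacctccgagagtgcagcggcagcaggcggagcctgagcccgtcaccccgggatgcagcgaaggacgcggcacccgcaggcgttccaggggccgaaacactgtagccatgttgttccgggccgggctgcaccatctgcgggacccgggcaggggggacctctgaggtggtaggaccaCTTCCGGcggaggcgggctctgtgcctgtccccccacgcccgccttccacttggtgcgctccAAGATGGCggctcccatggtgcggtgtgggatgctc

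Mrps2, which had the largest fall of any member probe set at HCN 2 h, held none of the ETS, YY1, NRF1 or cyclic AMP letters in its window. No match to these letters was found either for the called members Mrps6, Mrps35, Mrpl4, Mrpl15, Mrpl19, Mrpl24, Mrpl38 and Mrpl50, though not every member gene had a window. The windows of Mrps11 and Mrpl46 lie head to head on chromosome 7 and share 141 bases, and at HCN 2 h Mrps11 fell by 0.66 ± 0.16 (SE, adjusted p = 0.00122) while the change of Mrpl46 was -0.08 ± 0.12 (adjusted p = 0.683).

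All values are the deposited log2 signals, so a difference of 1 is a doubling. Each cyanide group was compared with its own control by limma with 1 mean per group over all 69 arrays, and p-values were adjusted by Benjamini-Hochberg over all 26773 tested probe sets. A probe set is called higher or lower where the adjusted p was under 0.05, and errors of changes are standard errors. Shares of the members are set beside shares over all tested probe sets, which were not matched for signal. The members were brighter: on air 2 h replicate 1, for example, their median was 8.87, against 5.68 over all tested probe sets. Correlations between arrays ran from 0.968 to 0.995. An RNA quality measure, the actin ratio (3′ over 5′ control probe sets for beta-actin, log2), which grows where transcripts are degraded or copied incompletely, was not even over the groups: it averaged 1.22 ± 0.61 (SD, n = 4) at HCN 2 h and 0.979 ± 0.255 at HCN 24 h, against 0.386 to 0.503 in the 4 air groups. Among the saline groups it averaged 0.841 at 1 h, 0.860 at 4 h and 0.878 at 24 h, but 0.422 at 2 h and 0.454 at 8 h, and it lay between 0.426 and 0.590 in the KCN groups. Summed levels of cell type markers below are the log2 of the added signals of a marker list. In bulk heart, fewer cells of a type and less RNA per cell cannot be told apart.

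**Figure D1:**
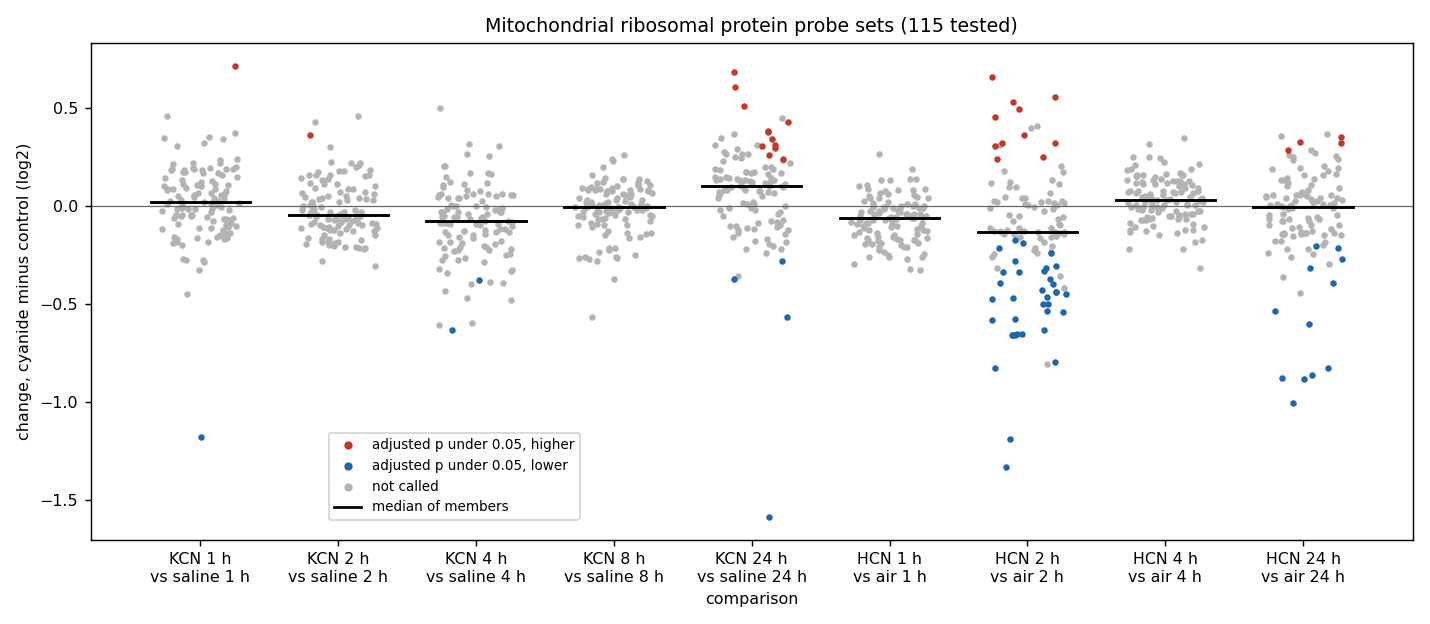
Change of each of the 115 tested member probe sets (points, log2, cyanide minus control) in the 9 cyanide comparisons, with called probe sets coloured and a black line at the members' median. Calls gather at HCN 2 h (11 higher, 36 lower), KCN 24 h (12 higher, 4 lower) and HCN 24 h (4 higher, 12 lower), and none is made at KCN 8 h, HCN 1 h or HCN 4 h.

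The widest response of the mitochondrial ribosomal protein genes came 2 h after inhaled HCN, and it was mostly downward. Of the 115 tested probe sets 36 were lower and 11 higher than in air (31.3% and 9.57%), while 25.3% of all tested probe sets were called, 16.5% lower and 8.79% higher. The median change of the members was -0.134, against -0.037 over all tested probe sets. Counted once per gene by the probe set of highest mean signal, 26 of 73 genes fell and 7 rose, with no share over all genes given beside it. The Mrpl genes had 19 lower and 4 higher of 46, and the Mrps genes 7 lower and 3 higher of 27. The count of 47 called members was 34 to 50 with each array left out in turn and 13 (11.3%, against 7.22% of all tested probe sets) with the spread taken from the compared groups alone.

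Mrps2, a small-subunit protein, gave the lowest adjusted p. Its probe set 1420845_PM_at read 5.10, 4.33, 5.68 and 5.03 in HCN replicates 1 to 4 and 6.0, 6.39, 6.85 and 6.24 in air. Every HCN array lay below every air array, and the change was -1.33 ± 0.18 (adjusted p = 3.5e-07). The second probe set of the gene, 1420846_PM_at, read 8.40, 8.56, 8.12 and 8.28 after HCN and 8.17, 8.48, 8.54 and 8.40 in air, so its groups overlapped (change -0.06, adjusted p = 0.75). The fall of Mrps2 was therefore seen by 1 of its 2 probe sets.

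Mrpl58 and Mrps6 fell evenly over the arrays. Mrpl58, a peptidyl-tRNA hydrolase that sits in the large subunit and frees stalled ribosomes, read 9.73, 9.59, 9.69 and 9.85 after HCN and 10.22, 10.23, 10.40 and 10.00 in air. Its change was -0.50 ± 0.07 (adjusted p = 8.0e-07), with the highest HCN array below the lowest air array. Mrps6, of the small subunit, read 9.08, 8.96, 9.07 and 9.28 against 9.70, 9.53, 9.66 and 9.51, a change of -0.50 ± 0.08 (adjusted p = 7.2e-06) with no overlap. Mrps35, also of the small subunit, read 9.41, 9.58, 9.28 and 9.41 against 9.64, 9.95, 9.95 and 9.93. Its groups did not overlap either, and the change was -0.45 ± 0.08 (adjusted p = 5.5e-05).

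The falls of several others differed between HCN arrays. Mrpl9, of the large subunit, read 6.56, 5.97, 7.66 and 7.62 with probe set 1430976_PM_a_at after HCN and 7.90, 8.10, 8.30 and 8.25 in air, a change of -1.19 ± 0.22 (adjusted p = 4.0e-05). Its HCN replicates 1 and 2 were well below replicates 3 and 4. Mrpl50, of the large subunit, read 8.05, 7.69, 8.68 and 8.66 against 8.95, 9.09, 9.33 and 8.90 with probe set 1424164_PM_at (-0.80 ± 0.14, adjusted p = 2.8e-05). Mrps12, a protein of the decoding centre, read 8.77, 8.22, 9.12 and 9.24 against 9.43, 9.59, 9.63 and 9.31 (-0.66 ± 0.12, adjusted p = 3.9e-05). In all 3 genes the HCN arrays lay below the air arrays, and replicates 1 and 2 lay lowest.

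The same replicates 1 and 2 had the highest actin ratios of the group, 1.49 and 1.95 against 0.79 and 0.64 in replicates 3 and 4 and 0.32 to 0.65 in air. The Gapdh ratio, the same measure from the Gapdh control probe sets, was 0.58, 0.75, 0.07 and 0.12 in HCN replicates 1 to 4. It was -0.17 to -0.12 in air, so replicates 3 and 4 also lay above every air array. With HCN replicates 1 and 2 left out, 14 members were lower and 1 higher, all 15 among the 47 called with every array. That was 13% of the members, against 12.2% of all tested probe sets in the same fit. With the actin ratio as a covariate 8 were lower and 3 higher, all 11 among the 47, or 9.57% against 11.3% of all tested probe sets. Under both settings the members' share of calls was thus near or below that of the whole array. Under the covariate the changes of Mrpl9 and Mrpl50 were -0.17 (adjusted p = 0.546) and -0.12 (adjusted p = 0.488), while Mrps2 (-0.71, adjusted p = 0.0103), Mrpl58 (-0.32, adjusted p = 0.0071) and Mrps35 (-0.47, adjusted p = 0.00229) kept their calls. Mrps12 lost its call both ways (-0.24, adjusted p = 0.199 with the covariate). Mrps6, Mrpl49 and 1 probe set of Mrpl19 kept theirs in every alternative tried for them.

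Mrpl19 and Mrpl49 belong to the large subunit. Mrpl19 read 3.33, 3.39, 3.25 and 3.46 after HCN with probe set 1440324_PM_at, near the filter's floor, and 3.97, 4.58, 4.40 and 3.79 in air. The groups did not overlap (-0.83 ± 0.16, adjusted p = 9.6e-05). Its brighter probe set 1450405_PM_at also fell (-0.65, adjusted p = 0.0025), and 1421914_PM_s_at was not called (-0.13). Mrpl49 read 7.33, 7.14, 6.87 and 7.28 against 7.81, 7.85, 8.06 and 7.43 with probe set 1423218_PM_a_at, a change of -0.63 ± 0.13 (adjusted p = 0.000161). Its second probe set fell too, by 0.34 (adjusted p = 0.0273). Mrpl15 (9.88, 9.87, 10.24 and 10.32 against 10.63, 10.62, 10.84 and 10.52), Mrps16 (10.02, 9.68, 10.04 and 10.14 against 10.54, 10.47, 10.81 and 10.22), a gene linked to mitochondrial disease, and Mrpl24 fell by 0.57, 0.54 and 0.39 with no overlap of the arrays. Mrpl10, the base of the ribosomal stalk, fell by 0.58 ± 0.12 (adjusted p = 0.000182).

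The 11 higher probe sets belonged to 9 genes. Mrpl52, of the large subunit, read 10.37, 10.43, 9.87 and 10.03 after HCN with probe set 1460701_PM_a_at and 9.76, 9.57, 9.73 and 9.41 in air. All HCN arrays were above all air arrays (0.55 ± 0.10, adjusted p = 1.6e-05), and this call stayed with the covariate (0.35, adjusted p = 0.0321). The other tested probe sets of Mrpl52 changed by 0.01 and -0.01. Mrpl13, of the large subunit, read 9.72, 10.05, 9.40 and 9.54 against 9.06, 9.0, 9.18 and 8.85 with probe set 1460354_PM_a_at (0.66 ± 0.14, adjusted p = 0.000245). Mrps24 read 10.62, 10.60, 10.02 and 10.20 against 9.90, 9.86, 9.96 and 9.59 (0.53 ± 0.11, adjusted p = 0.000158). In each of these 3 genes HCN replicates 1 and 2, of high actin ratio, lay highest. Mrps9 (0.46, with another tested probe set at -0.16), Mrps15 (0.36), Mrpl33 (0.32) and Mrpl1 (0.31) also rose. Without the 2 arrays of highest actin ratio, Mrpl52 alone of the named higher members kept its call (0.33, adjusted p = 0.0318).

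Probe sets of 1 gene often disagreed. Among the 31 genes with several tested probe sets, 23 had at least 1 call at HCN 2 h, all probe sets were called in 5, and in 20 a called probe set stood beside one that had the opposite sign or a change less than 1 in 4 of its size. In 3 genes called probe sets had opposite signs. For Mrpl13, probe sets 1460354_PM_a_at and 1435966_PM_x_at rose by 0.66 and 0.50, while 1424204_PM_at changed by -0.18 (adjusted p = 0.0349). That lower call ended when any of replicate 1, 2 or 3 of air 2 h (adjusted p 0.0589, 0.0872 and 0.190) or replicate 1, 3 or 4 of HCN 2 h (0.0667, 0.0837 and 0.115) was left out. Mrpl39 had probe sets at 0.24 and -0.21. Its higher call ended without replicate 2 of HCN 2 h (0.12, adjusted p = 0.371) and without replicate 1, 2 or 3 of air 2 h (adjusted p 0.130, 0.0635 and 0.107). Mrpl48 had probe sets at 0.25 and -0.24, and its higher call ended without replicate 1 or 4 of air 2 h or replicate 1 or 2 of HCN 2 h (adjusted p 0.0861, 0.0669, 0.109 and 0.195). Mrpl50 had a fallen probe set and another, 1451266_PM_at, that read 7.45, 6.99, 7.0 and 7.27 after HCN and 7.14, 7.40, 7.13 and 6.97 in air (0.02, adjusted p = 0.94). For these genes no single direction can be given.

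**Figure D2:**
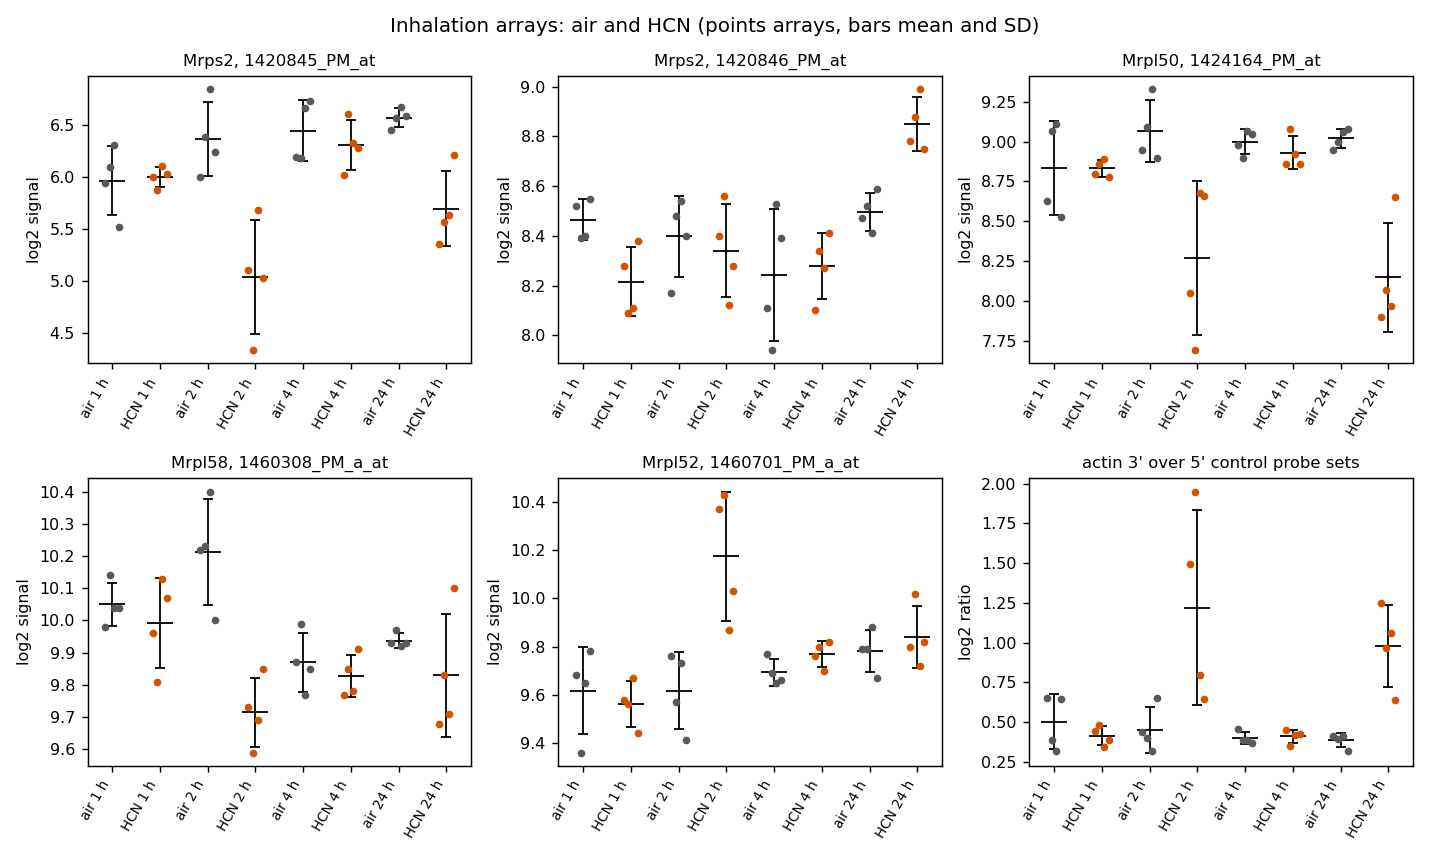
Log2 signal of Mrps2 (both probe sets), Mrpl50, Mrpl58 and Mrpl52, and the actin 3′/5′ ratio, on every air and HCN array (points) with the mean and SD of each group. The HCN arrays of Mrpl58 at 2 h (9.59 to 9.85) all lie below those of air (10.00 to 10.40), and the ratio is high in the HCN groups of 2 h and 24 h.

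**Figure D3:**
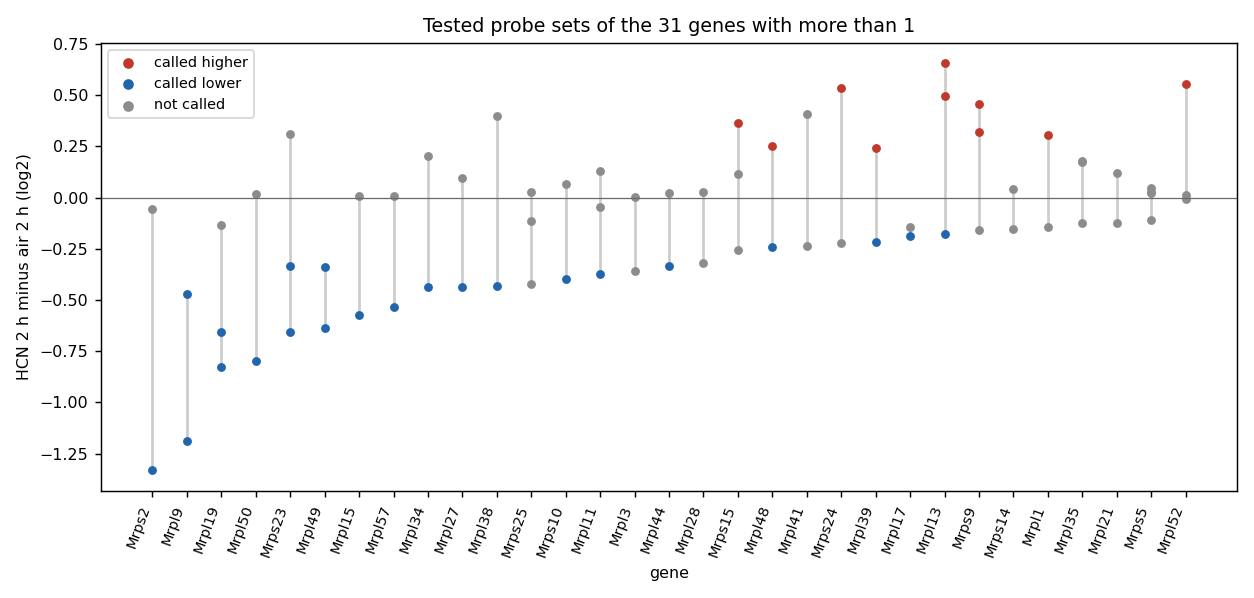
Change at HCN 2 h (log2, HCN minus air) of every tested probe set of the 31 genes with several, 1 column per gene. Mrps2 has probe sets at -1.33 and -0.06, and Mrpl13 at 0.66, 0.50 and -0.18.

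Other cell types differed at HCN 2 h as well. All 3 neutrophil markers measured were higher (median change 1.68), S100a8 by 1.98 and S100a9 by 1.68, with a summed level of 8.03 to 10.04 on the HCN arrays and 6.68 to 8.47 on the air arrays. Endothelial markers were lower in 2 of 4 (Pecam1 by -1.20), fibroblast markers higher in 2 of 4, and macrophage markers higher in 2 of 6. The endothelial sum was 8.98 to 9.53 against 9.55 to 9.73 and the fibroblast sum 13.47 to 13.59 against 13.15 to 13.37, both without overlap. The sum of 9 cardiomyocyte markers was 16.22 to 16.29 against 16.23 to 16.31. The part of these cell types in the members' changes was not tested.

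Mitochondrial translation and assembly factors leaned the same way at HCN 2 h, with genes counted by their brightest probe set. Over all tested probe sets, not counted by gene, 16.5% were lower and 8.79% higher. All counts here are from the fit without the actin ratio, which was high at HCN 2 h. Among 11 translation factors 6 fell and 1 rose (median -0.29). Mtfmt, which formylates the initiator tRNA, fell by 0.94, the elongation factors Tsfm and Tufm by 0.51 and 0.45, and Oxa1l, the insertase that receives new proteins at the inner membrane, by 0.59. Among 18 assembly and ribosomal RNA factors 8 fell and 1 rose (median -0.25), with Mrm1, an rRNA methyltransferase, down by 0.90. Of 18 mitochondrial aminoacyl-tRNA synthetases 4 fell and 1 rose. Gadd45gip1, a large-subunit protein without the Mrpl name, fell by 0.60, the single call among 4 such genes. Among 80 cytosolic ribosomal protein genes 26 fell and 4 rose (median -0.10), while 42 complex I genes split evenly, 9 lower and 9 higher (median 0.01). Among 8 regulators of nuclear mitochondrial genes Esrra fell by 0.72, Nrf1 fell by 0.66, and Myc rose by 1.16.

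At 24 h after HCN fewer members were changed. Of the 115, 12 were lower and 4 higher, while 14.3% of all tested probe sets were called, 9.24% lower and 5.08% higher. The members' median change was -0.002, against 0.040 over all tested probe sets. By gene, 7 of 46 Mrpl genes fell and 1 rose, and 2 of 27 Mrps genes fell and 2 rose. The count of 16 was 10 without replicate 3 of HCN 24 h, where 10.1% of all tested probe sets were called. Of the 16 probe sets called at 24 h, 8 were also called at 2 h (50% of the 16, 17% of the 47), and all 8 had the same direction at both times. Over all tested probe sets 41.2% of those called at 24 h were also called at 2 h, and 82.1% of these had the same direction.

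Mrpl50 was the lowest in adjusted p at HCN 24 h. Its probe set 1424164_PM_at read 7.90, 8.07, 7.97 and 8.65 after HCN and 8.95, 9.0, 9.06 and 9.08 in air, a change of -0.87 ± 0.14 (adjusted p = 7.2e-06) with no overlap. Mrps23, of the small subunit, read 9.0, 9.17, 9.28 and 9.77 against 9.99, 10.20, 10.10 and 10.22 (-0.83 ± 0.14, adjusted p = 1.9e-05). Mrpl9 read 6.83, 7.14, 6.82 and 7.78 against 7.91, 8.19, 8.28 and 8.21 (-1.01 ± 0.22, adjusted p = 0.000576). In these 3 genes HCN replicate 4 was nearest to air. Mrps5, also of the small subunit, read 5.72, 5.86, 6.21 and 7.0 against 7.13, 7.14, 7.10 and 6.87 with probe set 1453954_PM_a_at, where replicate 4 overlapped air (-0.86 ± 0.16, adjusted p = 0.00011). The other tested probe sets of these genes were not called. They changed by 0.29 for Mrpl50, -0.07 and 0.27 for Mrps23, 0 for Mrpl9, and 0.24, 0.03 and 0.12 for Mrps5. Of the 31 genes with several tested probe sets 9 had a call at HCN 24 h. In 8 a called probe set stood beside one of opposite sign or less than 1 in 4 of its size.

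Mrps2 moved in both directions at HCN 24 h. Probe set 1420845_PM_at, the one that fell at 2 h, read 5.36, 5.57, 5.64 and 6.21 against 6.46, 6.57, 6.68 and 6.59, a change of -0.88 ± 0.18 (adjusted p = 0.000414). Probe set 1420846_PM_at read 8.78, 8.88, 8.99 and 8.75 against 8.47, 8.52, 8.41 and 8.59, a change of 0.35 ± 0.10 (adjusted p = 0.0149). Neither overlapped its control group. The higher call ended without replicate 3 of air 24 h (adjusted p = 0.0543) or replicate 3 of HCN 24 h (0.0737).

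Mrps26, of the small subunit, was higher after HCN at 24 h. It read 8.16, 8.31, 8.15 and 8.30 against 7.91, 7.93, 7.77 and 7.99 in air, with no overlap (0.33 ± 0.08, adjusted p = 0.0034). Mrpl11, of the GTPase-associated centre, rose by 0.32 with probe set 1437131_PM_x_at, and Mrpl44, an RNase III-like protein in which variants are linked to cardiomyopathy, rose by 0.28 ± 0.09 (adjusted p = 0.0295). The call of Mrpl44 ended without replicate 1 or 3 of air 24 h or replicate 2 or 3 of HCN 24 h (adjusted p 0.0943, 0.0986, 0.0989 and 0.0774). Among the lower members Mrpl49 changed by -0.53 and Mrpl42 by -0.32. The calls of Mrpl19 (-0.60), Mrpl10 (-0.39), Mrpl4 (-0.27), Mrpl30 (-0.22) and Mrpl32 (-0.21) each ended without at least 1 array. Replicate 1 of HCN 24 h ended Mrpl19 (adjusted p = 0.0823), replicate 3 of HCN 24 h ended Mrpl10 (0.0727), replicate 1 of HCN 24 h ended Mrpl4 (0.114), replicate 3 of HCN 24 h ended Mrpl30 (0.101) and replicate 1 of HCN 24 h ended Mrpl32 (0.0922), among others.

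The actin ratio at HCN 24 h was 1.25, 0.96, 1.06 and 0.64 in replicates 1 to 4, so replicate 4, nearest to air in most lower members, also had the lowest ratio. With the ratio as a covariate, 1 member was higher and 1 lower (1.74%, against 2.74% of all tested probe sets): Mrps26 (0.35, adjusted p = 0.0257) and Mrpl50 (-0.35, adjusted p = 0.0253). None of the 3 neutrophil markers was called, and 1 of 4 endothelial markers was lower, with a summed level of 9.40 to 9.58 on the HCN arrays and 9.67 to 9.97 on the air arrays, which did not overlap. Gadd45gip1 again fell by 0.60, cytosolic ribosomal protein genes were lower in 7 of 80 and higher in none, and complex I genes were lower in 2 of 42 and higher in 1. In the fit without the ratio 9.24% of all tested probe sets were lower and 5.08% higher.

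At HCN 1 h and HCN 4 h limma called no member. At 1 h the background was 2.68% of all tested probe sets, 10 members (8.70%) had an unadjusted p under 0.05 against 14.6% of all tested probe sets, and 88 of the 115 changes (76.5%) were below 0 against 52.8%. A side of 0 says nothing of size, and the members' changes share arrays. At 4 h the background was 7.35%, and 7 members (6.09%) had an unadjusted p under 0.05, against 19.7% of all. Of the genes around the ribosome at 4 h, Mrm1 fell by 0.90, Yy1 by 0.36 and Gabpa by 0.34, and Myc rose by 0.95.

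After injected KCN the members' calls gathered at 24 h, as did those of the whole array, and were mostly upward. Of the 115 tested probe sets 12 were higher and 4 lower than in saline. Over all tested probe sets 11.9% were called, 6.79% higher and 5.13% lower, so the members' share was near that of the array. At KCN 1, 2, 4 and 8 h the whole array had 4.09%, 6.59%, 2.26% and 0.336% called. The median change was 0.102, against 0.011 over all tested probe sets. By gene, 11 of 73 rose and 1 fell: 6 and 0 of the 46 Mrpl genes, 5 and 1 of the 27 Mrps genes. The count of 16 was 7 with replicate 1 of saline 24 h left out, 8 with replicate 1 of KCN 24 h left out and 9 with its replicate 3 left out, where 6.83%, 7.59% and 9.12% of all tested probe sets were called.

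Mrpl4, which lines the exit tunnel of the large subunit, read 9.89, 9.79, 9.75 and 9.82 at KCN 24 h and 9.14, 9.40, 9.31 and 9.37 in saline. All KCN arrays were higher (0.51 ± 0.08, adjusted p = 2.8e-05). Mrpl38, of the large subunit, read 7.90, 7.75, 7.70 and 7.88 against 7.23, 7.25, 7.30 and 7.03 (0.61 ± 0.13, adjusted p = 0.000761). Mrps27, a pentatricopeptide repeat protein of the small subunit, read 6.36, 6.76, 6.45 and 6.63 against 5.81, 5.89, 5.88 and 5.90 (0.69 ± 0.16, adjusted p = 0.00187). Neither of these 2 genes had overlapping groups. Mrpl10 read 8.34, 8.35, 8.27 and 8.40 against 7.94, 7.91, 7.77 and 8.01, again with no overlap (0.43 ± 0.12, adjusted p = 0.0106).

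These higher values stood against low controls in part. Mrpl4 averaged 9.53, 9.83, 9.60, 9.89 and 9.30 in the saline groups of 1, 2, 4, 8 and 24 h, so saline 24 h was its lowest saline group, and its KCN 8 h arrays, at 10.02, 9.87, 9.90 and 9.77, covered the range of the KCN 24 h arrays in large part. Mrpl38 (7.20) and Mrps18a (9.40), which sits in the large subunit despite its name, were also lowest at 24 h among the saline means. Saline 24 h had the higher actin ratio, 0.878 ± 0.091 against 0.473 ± 0.131 at KCN 24 h. The Gapdh ratio overlapped, at -0.04 to 0.10 in saline and -0.05 to 0.09 after KCN. With the actin ratio as a covariate 3 members were higher and 2 lower (4.35% called, against 9.51% of all tested probe sets). Mrpl4 (0.35, adjusted p = 0.000964), Mrpl38 (0.37, adjusted p = 0.0219) and Mrps27 (0.54, adjusted p = 0.023) were the higher ones.

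The other higher members had smaller changes and less stable calls. Mrps18a changed by 0.38 and lost its call without replicate 1 of saline 24 h (adjusted p = 0.0556). Mrpl37 changed by 0.34 and lost it without replicate 4 of saline 24 h (0.098) or replicate 1 of KCN 24 h (0.0997). Mrps16 changed by 0.31 and lost it without replicate 1 or 4 of saline 24 h or replicate 1 of KCN 24 h (0.170, 0.136 and 0.270). Mrpl20 changed by 0.31 and lost it without replicate 1 or 4 of saline 24 h or replicate 1 or 3 of KCN 24 h (0.0561, 0.0978, 0.0557 and 0.130). The calls of Mrps5 (0.38), Mrpl53 (0.30), Mrps6 (0.26) and Mrps35 (0.24) each ended without any of several arrays. Among these Mrps5 reached 0.109 without replicate 4 of saline 24 h, Mrpl53 0.210 without replicate 1 of KCN 24 h, Mrps6 0.0887 without replicate 4 of KCN 24 h and Mrps35 0.152 without replicate 3 of saline 24 h. With all arrays the adjusted p of these 8 members lay between 0.0051 and 0.0484.

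Mrpl34, of the large subunit, was the strongest lower call at KCN 24 h, by its dim probe set. Probe set 1438014_PM_at read 3.27, 3.21, 3.48 and 3.51 after KCN and 5.93, 5.10, 4.76 and 4.02 in saline (-1.59 ± 0.24, adjusted p = 5.8e-06). Saline arrays of the same probe set read 4.59, 3.72, 4.64 and 5.09 at 1 h and between 3.14 and 3.94 at 2, 4 and 8 h. The saline 1 h and 24 h groups were therefore the high ones, and all KCN groups lay between 3.05 and 3.85. The brighter probe set 1416349_PM_at read 9.04, 8.91, 8.85 and 8.95 after KCN and 8.81, 8.91, 8.96 and 8.74 in saline and was not called (0.08). Mrpl50 fell by its probe set 1451266_PM_at, which read 6.34, 6.71, 6.64 and 6.75 against 7.35, 7.31, 6.97 and 7.09 (-0.57 ± 0.13, adjusted p = 0.0016), while 1424164_PM_at read 8.44, 8.34, 8.49 and 8.69 against 8.23, 8.32, 8.41 and 8.31 and was not called (0.17). Of the 3 tested probe sets of Mrps9, 1448921_PM_a_at and 1435843_PM_x_at fell by 0.37 and 0.28 and 1418034_PM_at was not called (-0.09, adjusted p = 0.690). The first lost its call without replicate 1 or 4 of saline 24 h or replicate 1, 2 or 3 of KCN 24 h (adjusted p 0.146, 0.0715, 0.111, 0.0577 and 0.0588).

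**Figure D4:**
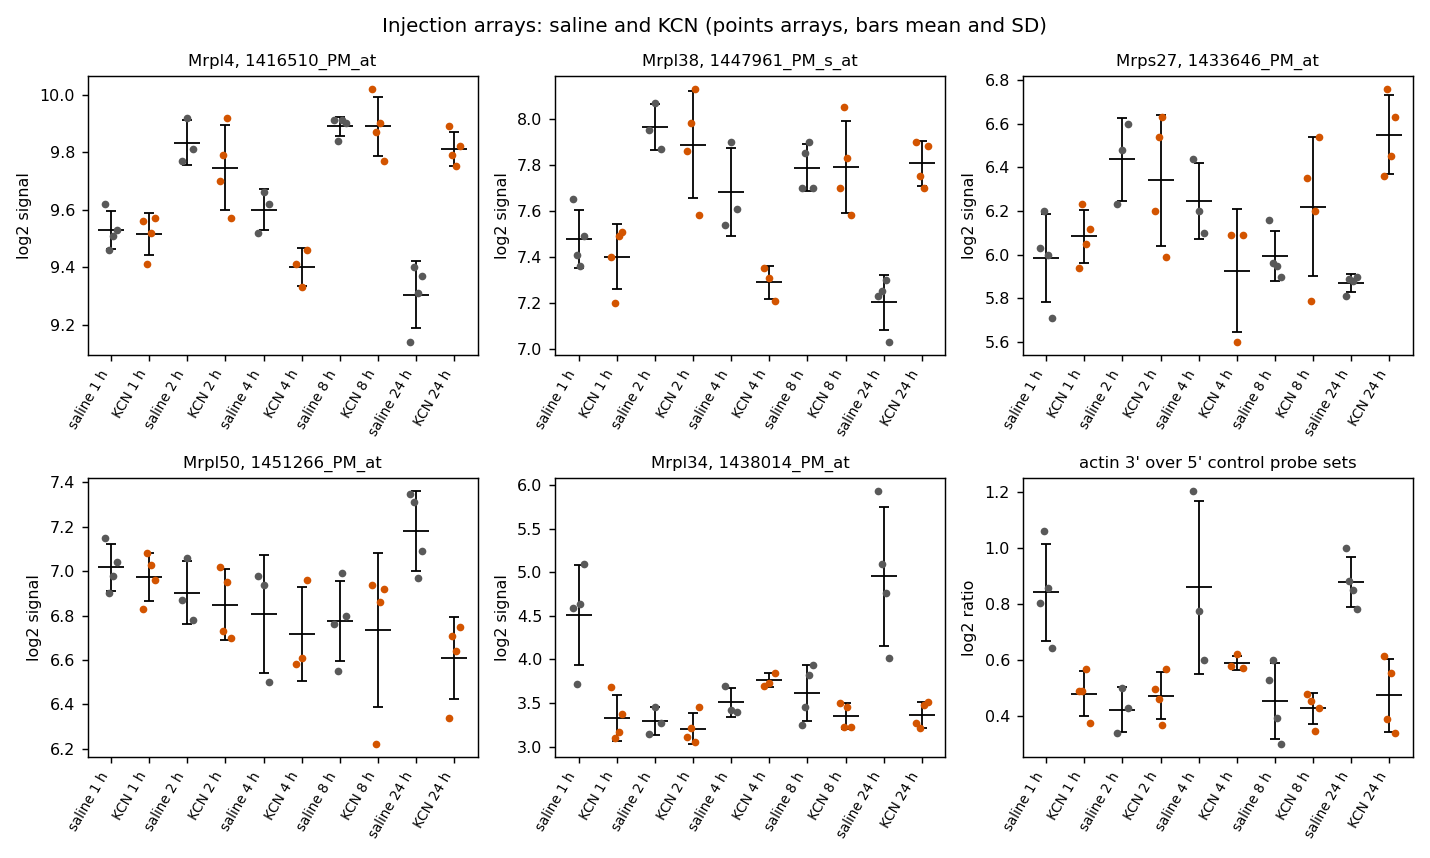
Log2 signal of Mrpl4, Mrpl38, Mrps27, Mrpl50, the dim probe set of Mrpl34 and the actin 3′/5′ ratio on every saline and KCN array (points) with the mean and SD of each group. At 24 h Mrpl4 reads 9.75 to 9.89 after KCN and 9.14 to 9.40 in saline, whose 24 h group has the higher actin ratio.

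Around the ribosome at KCN 24 h, 2 of 11 translation factors rose and none fell (median 0.14), Tufm by 0.39 and Oxa1l by 0.36. Gadd45gip1 rose by 0.60. Assembly factors were split, 3 higher and 2 lower of 18, as were the synthetases, 1 and 1 of 18. Tfb2m, a mitochondrial transcription factor, fell by 0.52, the single call among 5 genes of mitochondrial transcription. Cytosolic ribosomal protein genes had 5 higher and 2 lower of 80 (median 0.03) and complex I genes 5 and 2 of 42 (median -0.005). Over all tested probe sets 6.79% were higher and 5.13% lower. No neutrophil or airway marker was called. Of 6 macrophage markers 2 were higher, and their summed level was 11.01 to 11.36 on the KCN arrays and 10.65 to 10.95 on the saline arrays. None of 3 skeletal muscle markers was called, and their sum was 13.11 to 13.38 against 12.71 to 13.11. Neither sum overlapped between the groups, though the nearest skeletal muscle values were equal to 2 decimals. The summed level of airway and lung epithelium markers varied widely inside both groups, from 5.58 to 13.6 on the KCN arrays and from 5.42 to 11.7 on the saline arrays, and the part of these cell types in the members' values was not tested.

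The earlier KCN groups had few member calls. At 1 h (background 4.09%, with 1.57% higher and 2.52% lower) Mrpl19 was higher and Mrpl34 lower. Mrpl19 read 7.76, 7.74, 7.57 and 7.56 after KCN with probe set 1450405_PM_at and 7.18, 6.57, 7.06 and 6.95 in saline, with no overlap (0.72 ± 0.17, adjusted p = 0.0064). The call ended without replicate 2 of saline 1 h (0.59, adjusted p = 0.0612). Mrpl34 read 3.69, 3.10, 3.17 and 3.37 with its dim probe set against 4.59, 3.72, 4.64 and 5.09 (-1.18 ± 0.24, adjusted p = 0.00173), and this call stayed in every alternative tried for it. The brighter probe set of Mrpl34 changed by -0.12 and was not called. The actin ratio was 0.480 at KCN 1 h and 0.841 at saline 1 h, and the airway sum was 12.7 to 13.5 on the KCN arrays and 5.44 to 5.60 on the saline arrays. The adipocyte sum was 8.99 to 10.75 against 6.37 to 8.32, and the part of either was not tested. Of 80 cytosolic ribosomal protein genes 9 rose and none fell at that time.

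At 2 h after KCN (background 6.59%, with 3.29% higher and 3.30% lower) Mrps24 alone was called. The 18S ribosomal RNA control probe set, another sign of RNA or labelling quality, read 11.57 to 12.02 on the 3 saline 2 h arrays and at least 12.58 on each of the other 66 arrays, and its part in this comparison was not tested. Mrps24 read 9.96, 9.82, 9.85 and 9.86 against 9.45, 9.67 and 9.41 in saline (0.36 ± 0.12, adjusted p = 0.0442). The call ended without replicate 1 of saline 2 h (adjusted p = 0.144) or 3 (0.183) and without any single KCN 2 h array (0.118, 0.052, 0.0579 and 0.0936). The other Mrps24 probe set changed by -0.09 and was not called. At 4 h (background 2.26%, with 1.21% higher and 1.05% lower) Mrps5 and Mrpl52 were lower. The sums of macrophage markers (11.24 to 11.48 against 10.61 to 11.01), airway markers (10.95 to 13.86 against 5.49 to 5.78) and adipocyte markers (9.62 to 10.31 against 6.93 to 8.63) were higher at KCN 4 h without overlap, and their part was not tested. Mrps5 read 3.97, 3.97 and 4.05 with probe set 1435563_PM_at against 4.75, 4.73 and 4.40 (-0.63 ± 0.14, adjusted p = 0.011). It lost its call without replicate 1 or 2 of saline 4 h or replicate 2 of KCN 4 h (0.0677, 0.0644 and 0.0656). The other tested Mrps5 probe sets were not called and changed by 0.12, -0.01 and -0.06. Mrpl52 read 9.55, 9.55 and 9.85 against 10.04, 10.13 and 9.92 (-0.38 ± 0.11, adjusted p = 0.0482). It lost its call without replicate 1 or 2 of saline 4 h or replicate 1 or 2 of KCN 4 h (0.130, 0.196, 0.177 and 0.241). The other tested Mrpl52 probe sets were not called and changed by 0.04 and -0.12. At 8 h limma called no member, with a background of 0.336% and 7 members (6.09%) at an unadjusted p under 0.05, against 11.9% of all.

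Of the 115 tested probe sets 54 were called in no cyanide comparison, 41 in 1, 17 in 2 and 3 in 3 (47%, 35.7%, 14.8% and 2.61%). Over all tested probe sets these shares were 51.5%, 29.3%, 13.7% and 4.49%. The genes Mrpl2 and Mrpl3 of the large subunit, Mrpl12 of the ribosomal stalk, Mrpl16, and Mrps7, Mrps14, Mrps18b, Mrps22, Mrps34 and Mrps36 had no call in any of the 9. Mrpl3 and Mrps22 are known from mitochondrial disease, and Mrps36 also as a subunit of the oxoglutarate dehydrogenase complex.

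The injection and inhalation comparisons share no arrays. Of the 16 probe sets called at KCN 24 h (11 of 16) and the 47 called at HCN 2 h (11 of 47), 11 were in common, and all 11 had opposite directions. Opposite directions were the rule over the whole array: of all tested probe sets called at KCN 24 h 37.3% were also called at HCN 2 h, and 85.9% of the 1189 called in both were opposite. KCN 24 h and HCN 24 h shared 2 members, also opposite, as were 83.5% of the 625 shared by all tested probe sets. The actin ratio differed in opposite directions in the same comparisons, higher than control at HCN 2 h and HCN 24 h and lower than control at KCN 24 h. The Gapdh ratio was also higher than control at HCN 2 h and HCN 24 h, without overlap, but overlapped its control at KCN 24 h.

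The difference between the routes was tested at the 4 shared times as the HCN change minus the KCN change. At 24 h 22 members were lower and 7 higher in this difference, against a background of 18.8% (10.7% lower and 8.09% higher). Mrpl4 differed by -0.78, Mrpl38 by -0.90, Mrps27 by -0.93, Mrps23 by -1.12 and the first Mrps2 probe set by -1.33, and the dim Mrpl34 probe set by 1.79. At 2 h 12 were lower and 1 higher (background 5.73%, with 3.58% lower and 2.15% higher), with Mrps2 at -1.40, Mrpl9 at -1.62 and Mrpl58 at -0.47 lower and Mrpl33 at 0.51 higher. This count of 13 was 8 without replicate 2 of HCN 2 h, where 2.45% of all tested probe sets were called. The 2 h difference also uses the saline 2 h arrays of low 18S ribosomal RNA signal, and their part in it was not tested. At 4 h Mrpl33 alone differed (0.46 ± 0.13, adjusted p = 0.0413, background 1.87%, with 0.646% higher and 1.23% lower). Its arrays read 9.76, 9.81, 9.81 and 9.81 at HCN 4 h and 9.74, 9.64, 9.50 and 9.44 in air, and 9.0, 9.09 and 9.34 at KCN 4 h and 9.50, 9.49 and 9.18 in saline, and neither comparison alone passed the test. The count at 4 h was 0 without replicate 1 or 2 of saline 4 h, replicate 1 or 2 of KCN 4 h, or replicate 2, 3 or 4 of air 4 h or HCN 4 h, 5 without replicate 3 of saline 4 h, and 2 without replicate 3 of KCN 4 h. At 1 h limma called no member, with a background of 0.198% and 12 members at an unadjusted p under 0.05, against 2332 of all 26773. The covariate fit on the actin ratio gave 1 call at 24 h, 2 calls at 2 h and 4 at 4 h, with 3.02%, 0.971% and 2.79% of all tested probe sets called in that fit.

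In air-exposed mice the members were lowest at 4 h. Of the 115 tested probe sets 75 (65.2%) had their lowest air mean at 4 h, against 7011 of all 26773 (26.2%). The median deviation from the mean of the air groups was -0.107 at 4 h for the members and -0.011 for all tested probe sets. Over time 27 members differed among the air groups by limma's F test (background 16.7%), and 18 of these 27 were lowest at 4 h. Against air 1 h, 16 members were lower and 1 higher at air 4 h (background 4.56% and 4.25%), and against air 2 h 7 were lower and none higher (1.11% and 0.938%). From 4 h to 24 h 4 rose and none fell (0.803% and 0.433%).

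Mrps35 read 9.55, 9.84, 9.74 and 9.79 at air 1 h, 9.64, 9.95, 9.95 and 9.93 at 2 h, 9.44, 9.43, 9.36 and 9.36 at 4 h, and 9.54, 9.52, 9.76 and 9.54 at 24 h. Every 4 h array was below every other air array (F test, adjusted p = 0.000305). Mrpl44 read 10.35, 10.36, 10.34 and 10.40 at 1 h, 10.03, 10.26, 10.39 and 10.24 at 2 h, 9.83, 9.79, 9.93 and 9.92 at 4 h, and 10.02, 10.18, 10.01 and 10.22 at 24 h, again with the 4 h arrays lowest (adjusted p = 0.000747). Mrpl13 read 10.63, 10.64, 10.69 and 10.86 at 1 h and 10.74, 10.79, 10.90 and 10.56 at 2 h with probe set 1424204_PM_at. At 4 h it read 10.43, 10.44, 10.39 and 10.41 and at 24 h 10.56, 10.58, 10.48 and 10.61 (adjusted p = 0.000413). Mrpl58, Mrpl40, Mrpl57 and Mrps25 were also lowest at 4 h, and the call of Mrps25 ended without replicate 1 of air 4 h (adjusted p = 0.0527). Mrpl18 differed otherwise, averaging 9.33 at 1 h and 9.92 at 24 h (adjusted p = 0.000882), and Mrps30 was lowest at 24 h (adjusted p = 0.0029).

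The low 4 h air values moved little under other settings. The count of 75 was 74 with quantile normalization and with median centring, 79 with the actin ratio as a covariate, and 72 to 80 with each air array left out. The mean actin ratio of air 4 h was 0.400 ± 0.038, within the 0.386 to 0.503 of the other air groups. At HCN 4 h no member was called against air 4 h. Among the KCN groups 58 of the 115 members had their lowest mean at 4 h, against 6149 of all 26773. Among the HCN groups 27 did (7753 of all), and among the saline groups 19 (5468 of all).

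**Figure D5:**
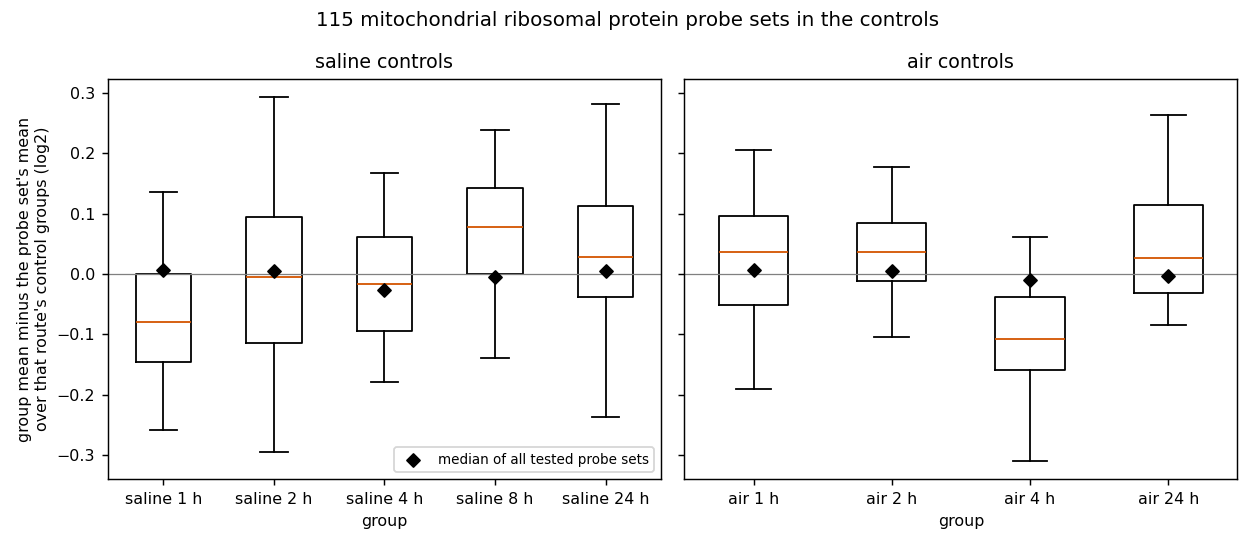
Deviation of the 115 tested members (boxes with median and quartiles, whiskers from the 5th to the 95th percentile, log2) from their mean over the control groups of a route, by time, with the median of all 26773 tested probe sets as diamonds. In air the box of 4 h lies lowest, with a median of -0.107.

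Saline-injected mice showed a broader change over time. The F test called 53 members among the saline groups, with a background of 38.3%. The lowest mean was most often at 1 h, in 40 of the 115 tested members against 3803 of all 26773, and the highest most often at 8 h, in 40 against 4173. From 1 h to 8 h 23 members rose and 2 fell (background 3.98% and 4.96%), with a median change of 0.152 for the members and -0.013 for all tested probe sets. From 1 h to 2 h 21 rose and 7 fell (9.67% and 8.49%), and the 3 saline 2 h arrays stood apart from all others in 18S ribosomal RNA signal, as given above. From 1 h to 24 h 9 rose and none fell (3.64% and 5.27%). Mrpl20, of the large subunit, read 8.94, 8.66, 8.87 and 8.87 at 1 h, 9.34, 9.37 and 9.28 at 2 h, 9.14, 9.09 and 8.96 at 4 h, 9.24, 9.55, 9.49 and 9.47 at 8 h, and 9.06, 9.10, 9.08 and 8.89 at 24 h (F test, adjusted p = 1.1e-05). Its 1 h and 8 h arrays did not overlap. Mrpl4 was highest at 8 h and lowest at 24 h (adjusted p = 8.6e-07), Mrpl40 was lowest at 1 h (adjusted p = 0.000105), and Mrpl54 averaged 7.06 at 1 h and 7.74 at 2 h (adjusted p = 0.000114). The actin ratio was high at saline 1, 4 and 24 h and low at 2 and 8 h, and with the ratio as a covariate 32 members were called (27.8%, against 33.9% of all tested probe sets), 30 of them among the 53. The airway sum was 5.44 to 5.60 at saline 1 h and 5.58 to 13.1 at saline 8 h.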

How the data were processed

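RNA was isolated from heart with RNeasy Plus kits and 100 ng of each sample was labelled with Affymetrix 3′ IVT PLUS reagents, per the labels' protocols. The authors deposited 1 table of log2 signals for the 69 arrays. The submitters' processing notes name MAS5, with no version, and how the arrays were scaled to each other is not given in the sources used here. The median 95th percentile of an array was 9.24 for injection and 9.52 for inhalation, so levels were compared within a route only. Genes were named by the platform annotation given with the table (28898 probe sets with 1 symbol, 551 with several, 15588 with none and 104 control probe sets), and all 73 member genes were matched to RefSeq by Entrez ID.

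The deposited values were used unchanged. Probe sets with at least 1 group mean above 3.23, the median of all group means, were tested (26773). limma 3.58.1 in R 4.3.3 fitted a mean per group with an intensity trend (51 residual degrees of freedom), and all tests were two-sided. The fit was tested on simulated data. Named in a comparison were up to 12 called members per direction, by lowest adjusted p with 1 probe set per gene, a fixed set of genes, genes whose probe sets disagreed, and members with opposite calls at different times. For gene counts the probe set of highest mean stood for the gene. The members and lists were chosen with earlier results of these data known. Alternatives were quantile normalization, median centring, other filters, no trend, the replicate number as a block, only the groups compared, the actin ratio as a covariate, each array left out, the HCN 2 h group without its 2 arrays of highest actin ratio, and 1 probe set per gene. The contrasts between control times, and the settings for the count lowest at air 4 h, were chosen after seeing the data, as was the core searched for NRF1, which replaced a longer form whose counts had been seen. In no comparison did every pair of same-numbered arrays have a correlation over 0.1 (range -0.142 to 0.318). Single pairs did, 2 of 4 at each of KCN 8 h, HCN 1 h and HCN 4 h. A rule that asks for every pair cannot show a link between single pairs. Array number limits the precision. P-values rest on the spread between arrays within groups, with 1 estimate per probe set shared over all 18 groups.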

Additional observations from a re-analysis of the deposited data

Results flagged for a closer look

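In groups of 4 arrays, 1 array stood apart from the other 3 in 11 of the cases examined (15 group medians and 109 pairs of a named member and a group), and chance alone flags about 1 in 20 groups. The median level of the tested members was 8.62 in saline 24 h replicate 4 and 8.64 in HCN 2 h replicate 2, the lowest of their groups. Among single members, arrays apart from their group were Mrpl37 at 7.60 in saline 24 h replicate 4, Mrps5 at 6.24 and Mrps16 at 10.34 in KCN 24 h replicate 1, Mrpl53 at 10.12 in saline 24 h replicate 3, and Mrpl39 at 11.59 in HCN 2 h replicate 2. The others were Mrps35 at 9.64 in air 2 h replicate 1, a further Mrps5 probe set at 6.87 in air 24 h replicate 4, and Mrpl4 at 10.20 and Mrpl32 at 9.84 in HCN 24 h replicate 4.

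The change after HCN and the change after KCN differed, by limma's test of the difference itself, in 13 members at 2 h, 1 at 4 h and 29 at 24 h. At 2 h the HCN change minus the KCN change was 0.51 for Mrpl33, -1.40 for Mrps2, -0.47 for Mrpl58, -0.45 for Mrps6, -0.34 for Mrpl24 and -0.75 for Mrpl50. It was -0.71 for Mrps12, -1.62 for Mrpl9, -0.61 for Mrpl15, -0.53 for Mrps35, -0.48 for Mrps16 and -0.95 for Mrpl19.

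Among the genes higher at KCN 24 h the difference at 24 h was -0.78 for Mrpl4, -0.90 for Mrpl38, -0.93 for Mrps27, -0.53 for Mrps18a and -0.82 for Mrpl10. It was -0.45 for Mrpl37, -0.45 for Mrpl20, -0.44 for Mrps16 and -0.44 for Mrpl53. Among the members lower at KCN 24 h it was 1.79 for the dim Mrpl34 probe set, 0.86 for Mrpl50 probe set 1451266_PM_at and 0.48 for Mrps9. Among those called at HCN 24 h it was 0.31 for Mrpl11, 0.41 for Mrpl44, -1.05 for Mrpl50 probe set 1424164_PM_at, -1.12 for Mrps23, -0.93 for Mrps5, -1.24 for Mrpl9, -0.78 for Mrpl49, -0.73 for Mrpl19 and -0.30 for Mrpl30. Mrps2 differed by -1.33 with one probe set and by 0.49 with the other.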

How the results depend on the processing

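Counts of called members are given for each setting that moved them by over 1.5 times, and the cause was not tested. When the fit held the actin ratio as a covariate, counts were 4 at KCN 1 h, 2 at KCN 2 h, 6 at KCN 4 h, 5 at KCN 24 h, for HCN 11 at 2 h and 2 at 24 h, 32 over the saline times, and 2, 4 and 1 for the route differences at 2, 4 and 24 h. With only the groups compared, which leaves fewer arrays to estimate the spread, they were 5 at KCN 1 h, 0 at KCN 2 h, 0 at KCN 4 h, HCN 2 h had 13, 32 over the saline times, and 0 for the route differences at 2 and 4 h. With the 2 arrays of highest actin ratio taken out of HCN 2 h, 15 were called. Quantile normalization gave 6 at KCN 4 h and 3 for the route difference at 4 h, median centring 0 at KCN 2 h and 1 at KCN 4 h. With no filter the counts were 0 at KCN 2 h, 1 at KCN 4 h, 10 at KCN 24 h and 0 for the route difference at 4 h, which was 2 with the filter at the 75th percentile. Without the trend they were 0 at KCN 2 h and 1 at KCN 4 h, and with 1 probe set per gene 0 at KCN 1 h and 1 at KCN 4 h. With the replicate block they were 0 at KCN 2 h and 1 at KCN 4 h, and 48 at HCN 2 h, 16 at KCN 24 h and 16 at HCN 24 h. Of all 26773 tested probe sets the covariate fit called 808, 2156, 782 and 2546 at KCN 1, 2, 4 and 24 h. It called 3016 and 733 at HCN 2 and 24 h, and 260, 746 and 808 for the route differences at 2, 4 and 24 h. For the other settings no such counts are given here, so their moves are not read as particular to the members.

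With each array left out in turn the counts ranged from 1 to 3 at KCN 1 h, 0 to 1 at KCN 2 h, 0 to 4 at KCN 4 h, 7 to 15 at KCN 24 h, for HCN 34 to 50 at 2 h and 10 to 24 at 24 h, 43 to 53 over the saline times, 18 to 30 over the air times, and 8 to 18, 0 to 5 and 20 to 34 for the route differences at 2, 4 and 24 h. They stayed at 0 at KCN 8 h, HCN 1 h, HCN 4 h and the route difference at 1 h. These ranges stand without the share over all tested probe sets and are not read as particular to the members. The higher call of Mrpl39 at HCN 2 h changed sign with the actin ratio as a covariate (-0.018, adjusted p = 0.934). Of the named calls 40 lost significance under that covariate. Median centring made the share of higher calls 66.7% in place of 50% at KCN 1 h, where 3 and 2 calls were made.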
